A study of Homo sapiens with 4 samples.

Results

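Chromosome 7 contributed 2206 of the 22680 high-confidence loops deposited for SMC1 HiChIP in A673 cells, 9.73% of that table. They are all the loops whose first anchor lies on the chromosome, 1004 on the short arm (7p) and 1202 on the long arm (7q), and none spanned the centromeric gap. A673 is an Ewing sarcoma cell line. In HiChIP, DNA ends near each other in fixed nuclei are ligated, and fragments bound by a chosen protein, here SMC1, are pulled down with an antibody. The study compared 2 libraries of STAG2-null A673 cells with 2 libraries of wild-type A673 cells. The labels' protocols describe the STAG2-null cells as single-cell clones edited with Cas9, and no drug or other treatment is named for either genotype. The labels do not say whether the libraries of a genotype are separate clones or cultures, so p-values reflect the spread among these 4 libraries alone, part or all of which may be technical. Contacts do not measure the STAG2 transcript, and the knockout was not checked here.

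Cohesin is a ring-shaped complex of SMC1, SMC3 and RAD21 with a STAG subunit, STAG1 or STAG2. It extrudes chromatin into loops that often stop at sites bound by CTCF, and it also joins promoters to enhancers. STAG2 is recurrently mutated in Ewing sarcoma, a tumour driven by the EWS-FLI1 fusion, whose FLI1 part binds GGAA motifs, alone or in repeats.

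Chromosome 7 was chosen because its share of contacts differed between the genotypes. That share and every change measured against a library total are therefore given as a description, and the tests below concern departures of single loops from the chromosome.

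Promoters at 3 loops that depart from the chromosome are shown first, since the description of departures turns on them. The loop at MCM7, AP4M1 and COPS6 and the loop to CAV1 stood above the chromosome's ratio, the former past the test, and the loop at REPIN1 and ZNF775 stood below it. For 4 of these 6 genes, COPS6, MCM7, CAV1 and ZNF775, the 250 bases before the start are given 5′ to 3′ on the gene's strand, from RefSeq on GRCh38.p14. Capitals mark GGAAGGAA on either strand, a pair of the GGAA units that FLI1 binds, and AGGGGGC on either strand, part of the CTCF motif. In COPS6 the 2 matches overlap by 1 base.

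COPS6 (chr7:100088719-100088968, plus strand): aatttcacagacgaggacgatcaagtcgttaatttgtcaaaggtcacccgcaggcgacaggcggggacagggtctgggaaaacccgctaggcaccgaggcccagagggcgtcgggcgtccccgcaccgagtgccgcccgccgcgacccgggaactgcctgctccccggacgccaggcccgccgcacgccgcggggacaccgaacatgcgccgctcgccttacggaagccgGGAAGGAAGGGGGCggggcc
MCM7 (chr7:100101398-100101647, minus strand): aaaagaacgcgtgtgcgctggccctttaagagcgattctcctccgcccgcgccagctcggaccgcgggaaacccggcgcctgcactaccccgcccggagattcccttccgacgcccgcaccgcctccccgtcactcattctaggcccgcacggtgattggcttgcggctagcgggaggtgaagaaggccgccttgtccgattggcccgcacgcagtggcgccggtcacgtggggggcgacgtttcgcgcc
CAV1 (chr7:116524759-116525008, plus strand): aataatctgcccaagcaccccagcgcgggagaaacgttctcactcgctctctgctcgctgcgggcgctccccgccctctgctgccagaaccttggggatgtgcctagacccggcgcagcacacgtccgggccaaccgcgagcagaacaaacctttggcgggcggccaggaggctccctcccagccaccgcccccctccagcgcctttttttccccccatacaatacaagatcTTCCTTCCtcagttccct
ZNF775 (chr7:150379080-150379329, plus strand): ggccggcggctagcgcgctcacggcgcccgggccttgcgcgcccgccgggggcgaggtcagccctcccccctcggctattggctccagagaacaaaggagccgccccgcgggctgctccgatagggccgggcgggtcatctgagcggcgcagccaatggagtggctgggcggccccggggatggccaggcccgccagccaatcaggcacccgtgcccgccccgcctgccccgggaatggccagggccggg

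The GGAA pair was present upstream of COPS6 and CAV1 and not in the windows of MCM7 and ZNF775. The windows of AP4M1 and REPIN1, at the same loops, are not shown, so no pattern by direction is read. Of 27305 promoter windows in the RefSeq table, 2.99% held GGAAGGAA and 13.1% held AGGGGGC. Such a match describes the letters and is no measured binding site. The authors' deposited table flags FLI1 at 1 anchor of the MCM7 loop, at both anchors of the CAV1 loop and at neither anchor of the ZNF775 loop. Of 41 genes looked for, 31 were in the RefSeq table.

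The libraries held 682724 (STAG2-null 1), 698002 (STAG2-null 2), 661881 (wild-type 1) and 765017 (wild-type 2) paired-end tags (PETs), each PET being 1 sequenced ligation between 2 anchors. Chromosome 7 took 73721, 74798, 59239 and 68835 of them in that order, over 113169 anchor pairs between 6192 anchors. STAG2-null libraries gave it 10.8 ± 0.0580% of their PETs and wild-type libraries 8.97 ± 0.0338% (SD, n = 2), a fold of 1.20 and a log2 ratio of 0.26. Libraries of a genotype differed by only 0.01 on that scale, and the genotypes did not overlap.

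The 2206 loops were mostly short. Their median width was 20.8 kb, against 25.1 kb for the high-confidence loops of other chromosomes, with a range from 5.01 kb to 1.31 Mb. Loops under 20 kb made up 48.8% of them, against 44.2% elsewhere. The median loop rested on 20 PETs summed over the 4 libraries, and the extremes were 8 and 239. They used 1696 anchors, of which 831 served a single loop and 246 served at least 5. The busiest anchor, at 105677840 to 105691973 (hg19), took part in 28 loops. Loops that share an anchor are not independent of each other.

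In steps of 5 Mb, the gain of chromosome 7 ran along its whole length, but not evenly. All anchor pairs were placed by their midpoint into 5 Mb steps, and 31 of 32 steps held at least 500 PETs. In 31 of these 31 steps both STAG2-null libraries lay above both wild-type libraries, where 40.8% of 498 steps over the genome did so. The step from 50 to 55 Mb, with 423 PETs, was left out and stood at 0.20. The log2 ratio of the steps ranged from 0.08 to 0.49, with a median of 0.27 and an SD of 0.100. Within genotypes, the log2 difference between the STAG2-null libraries had an SD of 0.110 over the steps, and that between the wild-type libraries 0.0530. Those differences correspond to an SD of 0.0608 for a ratio of means of 2 libraries, so the steps varied more than the libraries of a genotype did, and the excess was not tested.

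**Figure D1:**
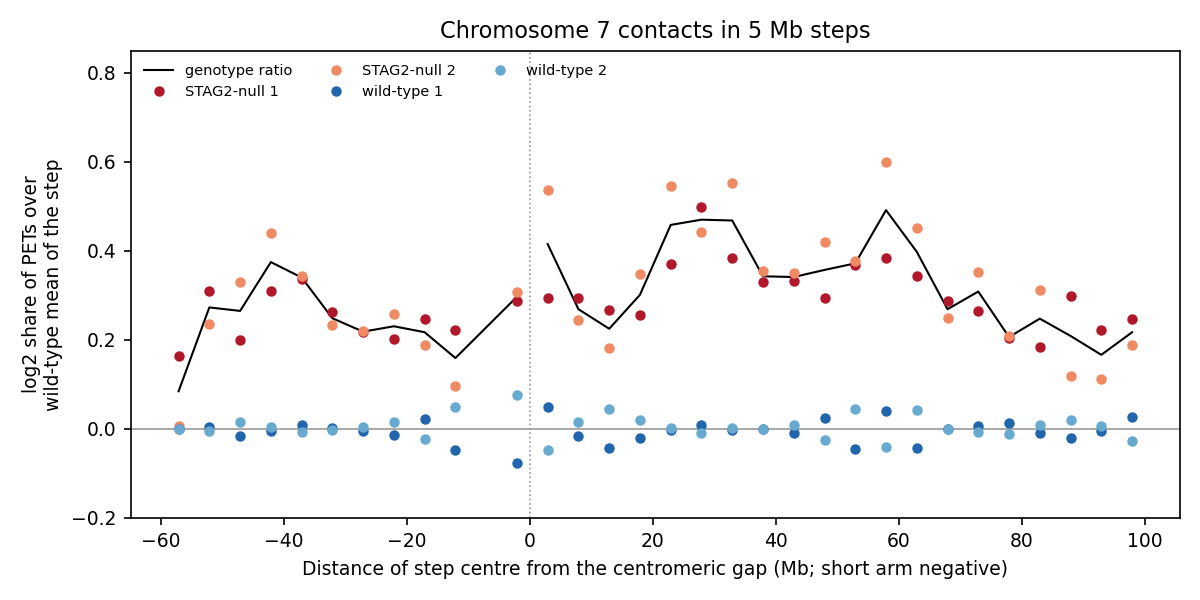
Share of library PETs in each 5 Mb step of chromosome 7, as log2 over the mean of the wild-type libraries (y axis), against the distance of the step from the centromeric gap in Mb (x axis). Points are the 4 libraries and the line is the genotype ratio. All STAG2-null points lie above the wild-type points of their step, nearest in the first step (0.08) and farthest in the step at 115 Mb (0.49).

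The 3 lowest steps lay at 0 to 5 Mb (0.08), 45 to 50 Mb (0.16) and 150 to 155 Mb (0.17). In the first step the shares were 162.4, 145.6, 145.1 and 144.9 per 10000 library PETs in the library order above. STAG2-null 1 stood clear there, and STAG2-null 2 was level with the wild-type libraries. The 3 highest steps were 115 to 120 Mb (0.49), which holds CAV1 and MET, 85 to 90 Mb (0.47) and 90 to 95 Mb (0.47). At 115 to 120 Mb the shares were 34.8, 40.4, 27.4 and 25.9 per 10000, with STAG2-null 2 highest. Every step from 80 to 125 Mb stood between 0.34 and 0.49.

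Stretches of several steps were then summed, with limits set after the step values were seen. From 80 to 125 Mb the ratio was 0.39, against 0.26 from 60 to 80 Mb and 0.23 from 125 to 160 Mb. That stretch took 25.3% and 27.3% of all chromosome 7 PETs in the STAG2-null libraries and 24.1% and 23.9% in the wild-type libraries. Both STAG2-null libraries were higher, by 0.13 on the log2 scale of chromosome 7 shares. The value was 0.08 without STAG2-null 2 and 0.19 without STAG2-null 1. High ratios were not confined to that stretch. The step from 60 to 65 Mb, with 708 PETs, stood at 0.42. On 7p the ratio from 15 to 25 Mb was 0.36, and both STAG2-null libraries were higher there too. As a share of chromosome 7 it was 0.10 higher in log2 (0.06 without STAG2-null 2 and 0.14 without STAG2-null 1).

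The opposite held for the first 3 Mb of 7p. They took 11.1% and 9.97% of chromosome 7 PETs in the STAG2-null libraries and 12.4% and 12.3% in the wild-type libraries, 0.23 lower on the log2 scale (0.15 lower without STAG2-null 2 and 0.31 lower without STAG2-null 1). As shares of the whole library these 3 Mb stood at 1.20%, 1.07%, 1.11% and 1.11%, so the genotypes overlapped and the ratio was 0.03. The STAG2-null libraries differed from each other by 0.17 there. From 3 to 5 Mb the ratio was 0.24, close to the chromosome's. By single Mb it was -0.02, 0.13 and -0.02 in the first 3 and between 0.19 and 0.32 in the next 4.

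The shift was larger on 7q than on 7p. The ratio was 0.20 on 7p and 0.31 on 7q, with the arms split at the widest gap without an anchor, from 57629928 to 61527262. The log2 of 7p over 7q PETs was -0.40 and -0.48 in the STAG2-null libraries and -0.32 and -0.33 in the wild-type libraries. The groups did not overlap, and their means differed by -0.11. With 2 libraries against 2, an exact two-sided permutation test cannot give a p below 0.333. The difference was -0.15 without STAG2-null 1 and -0.07 without STAG2-null 2. Without the first 5 Mb, a setting chosen after seeing the data, 7p stood at 0.26 and the difference between the arms was -0.051. Much of the arm difference therefore sat in that step.

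Steps dense in anchors tended to have smaller ratios. The correlation of the ratio with the number of anchors per step, which ran from 64 to 458, was -0.52 over 31 steps and -0.38 over 30 steps without the first. Neighbouring steps share libraries and depth, so this is a description.

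Among 23 chromosomes with at least 5 steps, 7 and 19 were the ones on which every step stood above 0. Chromosome 19 ranged from 0.03 to 0.46 over 10 steps with an SD of 0.161, and chromosome 16, with a higher total ratio of 0.33, from -0.10 to 0.54 over 16 steps with an SD of 0.168. Chromosome 12 stood at 0.02 in total and ranged from -0.17 to 0.28 over 26 steps with an SD of 0.105. The spread of the steps on chromosome 7 was thus like that on chromosome 12, around a higher mean. These differences between chromosomes were not tested.

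The gain also held at every contact length. Over the other chromosomes the genotype ratio depended on length, from 0.16 for pairs of 5 to 10 kb to -0.17 for 50 to 100 kb and 0.05 for at least 500 kb. Chromosome 7 followed the same curve at a higher level, with 0.40, 0.13 and 0.34 in those classes. Its difference from the other chromosomes lay between 0.24 and 0.31 in all 7 length classes. By the PETs of a pair, the difference was 0.28 for pairs with 1 to 4 PETs, 0.29 for 5 to 19 and 0.35 for at least 20. The ratio of the sparsest pairs on chromosome 7 was 0.21 and that of the strongest 0.40.

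**Figure D2:**
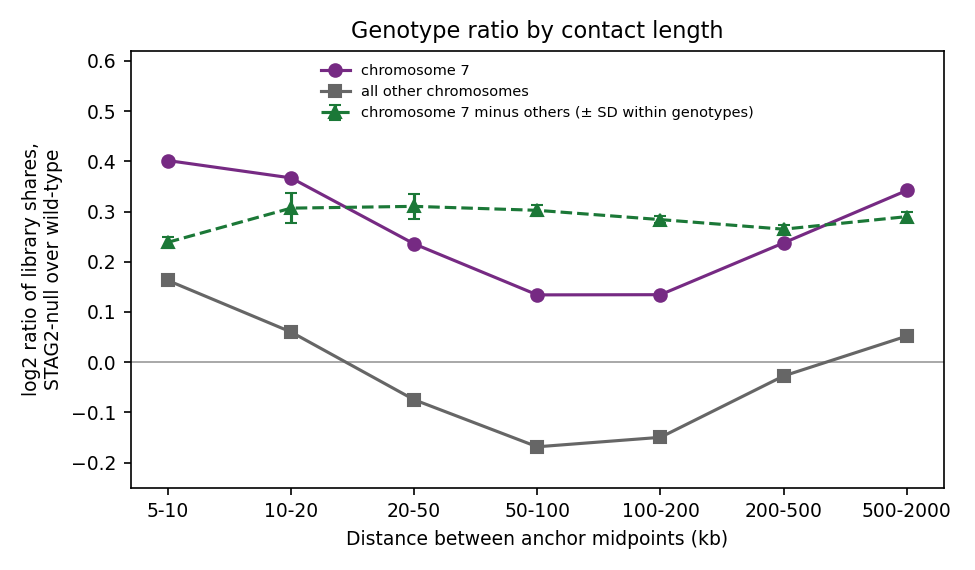
Log2 ratio of library shares, STAG2-null over wild-type (y axis), by the distance between anchor midpoints in kb (x axis), for chromosome 7, for all other chromosomes and for their difference with the SD within genotypes. Both curves are lowest between 50 and 200 kb, and the difference stays between 0.24 and 0.31.

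For single loops, genotypes were compared by the quasi-likelihood test of edgeR, with Benjamini-Hochberg adjustment over all 11864 high-confidence loops that had at least 20 PETs. Of the 2206 loops, 1141 were tested. Scaled to library totals, 788 of the 1141 stood above 0, where 49.2% of all tested loops did, and the median log2 change was 0.29 against -0.04 for all tested loops. Called at an adjusted p under 0.05 were 3 higher loops (background 0.0843%) and 1 lower loop (background 0.11%). At an unadjusted p under 0.05 there were 112 higher (background 4.83%) and 13 lower (background 4.74%). The rule used this contrast, so nothing is read from these counts.

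Scaled to the PETs of their own chromosome in each library, 1 loop of chromosome 7 was higher (background 0.0759%) and 1 was lower (background 0.00843%) at an adjusted p under 0.05. Above 0 stood 679 of the 1141 (59.5%, background 56.9%). At an unadjusted p under 0.05, 56 were higher (4.91%, background 5.81%) and 24 lower (2.10%, background 2.65%). The shares above 0 and at an unadjusted p under 0.05 lie close to the background and show no departure particular to the chromosome. The adjusted calls are too few to set beside it, and the lower one was the only lower call among all 11864 tested loops. From the 10th to the 90th percentile, loops on chromosome 7 lay between -0.62 and 0.93, and those of other chromosomes between -0.70 and 0.89. This scaling moves the median of all tested loops to 0.11 and that of chromosome 7 to 0.13 (on other chromosomes, pairs with at least 20 PETs stood at 0.06 and those with 1 to 4 PETs at -0.07). Scaled to the tested loops of each chromosome instead, which removes that common shift, 34 were higher and 41 lower unadjusted, and scaled to sparse pairs 65 and 16. No share over all tested loops stands beside the counts of these other scalings.

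**Figure D3:**
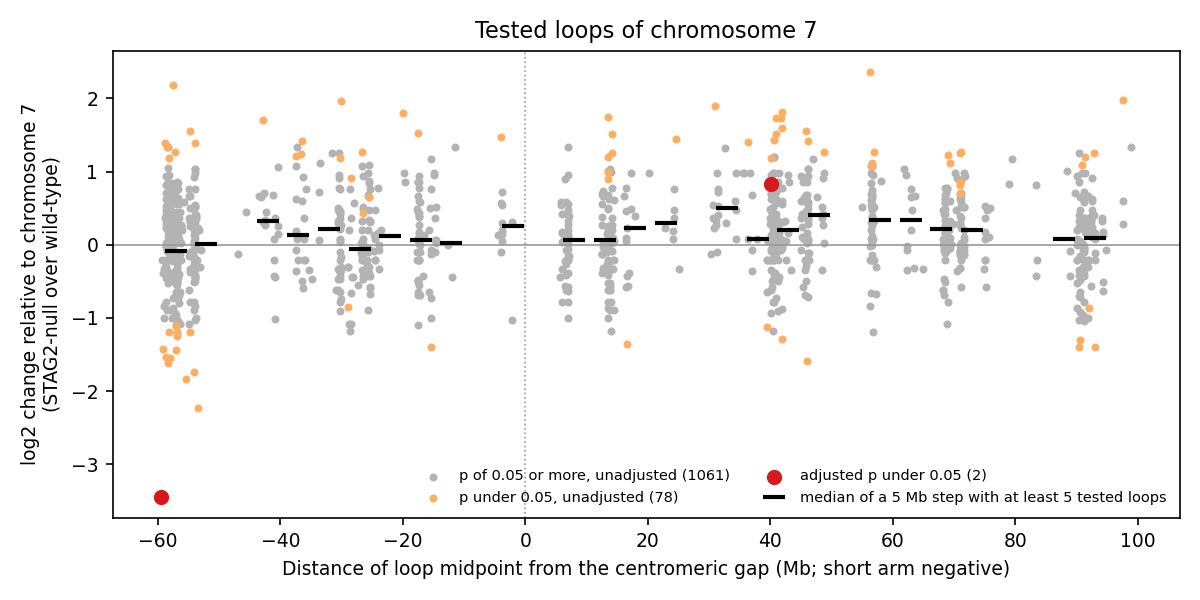
Log2 change of the 1141 tested loops relative to chromosome 7 (y axis) against distance from the centromeric gap in Mb (x axis, short arm negative). Points are loops, coloured by their p-value from edgeR, and bars are medians of 5 Mb steps with at least 5 tested loops. The lower departures crowd at the short-arm end, where the lowest loop stands at -3.44.

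The loops followed the profile of all pairs. In the first 10 Mb, 281 tested loops had a median log2 change of -0.03 relative to the chromosome and 52.0% lay below 0. Between 80 and 125 Mb, 272 tested loops had a median of 0.31 and 29.4% lay below 0. The 368 loops from 10 to 80 Mb had a median of 0.09 and the 220 beyond 125 Mb one of 0.17. At an unadjusted p under 0.05 in edgeR, the first 10 Mb held 7 higher and 14 lower loops, and 80 to 125 Mb held 18 and 3. The background over all tested loops was 5.81% higher and 2.65% lower. Of the 12 lowest departures whose genotypes did not overlap, 10 lay in the first 10 Mb, which held 281 of the 1141 tested loops. The scaling uses the whole chromosome, so these counts are not separate from the low ratio of the first step (0.08). Width moved with the change as well, with medians of 0.20 for loops of 5 to 10 kb, -0.21 for 50 to 100 kb and 0.21 for 200 to 500 kb, beside 0.24, -0.13 and 0.15 on other chromosomes.

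The upward departure with the smallest p joined 99681986 to 99693887 with 99694502 to 99704498, a loop of 11.6 kb at MCM7, AP4M1 and COPS6. MCM7 encodes a subunit of the replicative helicase, AP4M1 a subunit of an adaptor complex for vesicle transport, and COPS6 a subunit of the COP9 signalosome. It held 82 and 79 PETs in the STAG2-null libraries and 36 and 42 in the wild-type libraries, the most PETs of any loop on the chromosome. Per 100000 PETs of chromosome 7 this was 108 ± 3.97 against 60.9 ± 0.173 (SD, n = 2), and the groups lay far apart. The log2 change relative to the chromosome was 0.83 ± 0.18 (SE), with an adjusted p of 0.0274 in edgeR. Scaled to the tested loops it was 0.69, with an adjusted p of 0.196 in edgeR, and scaled to its 5 Mb step 0.75, with an adjusted p of 0.132. The neighbouring loop from 99676354 to the same anchor held 37, 46, 33 and 25 PETs and stood at 0.30 (adjusted p = 0.799 in edgeR). All other pairs at its anchors stood at 0.17 and 0.16 on the log2 scale of chromosome 7 shares.

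The downward departure with the smallest p lay near the start of 7p and joined 148155 to 153074 with 164691 to 170305 over 16.9 kb. It held 0 and 2 PETs in the STAG2-null libraries and 11 and 10 in the wild-type libraries. Wild-type cells were 12.2-fold higher as shares of chromosome 7, with an exact 95% binomial interval of 2.98 to 107. The fitted log2 change was -3.44 ± 0.78 (SE), with an adjusted p of 0.0216 in edgeR. Scaled to its 5 Mb step, the loop stood at -3.28 and was not called (adjusted p = 0.102 in edgeR). Scaled to the tested loops it stood at -3.58 (adjusted p = 0.0132 in edgeR). The authors' deposited table names no gene at this loop and flags H3K27ac at its first anchor, with no CTCF, FLI1 or promoter flag. The other pairs at its anchors stood at -0.09 and -0.24, so the contrast concerned this pair more than its anchors. Leaving out any of the 4 libraries left neither this loop nor the MCM7 loop past the threshold, with values of -6.48 to -2.54 and of 0.79 to 0.87, nor did testing every loop without a filter, or DESeq2. With anchors merged within 5 kb this loop stood at -2.01 (adjusted p = 0.281 in edgeR), and the MCM7 loop had no value because its anchors fused.

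A 12.8-kb loop at ACTB, which encodes cytoplasmic beta-actin, joined 5588330 to 5604184 with 5606782 to 5611268. It held 27 and 34 PETs in the STAG2-null and 7 and 13 in the wild-type libraries, with no overlap. Scaled to library totals, which includes the gain of the chromosome and is a description, it stood at 1.55. Relative to the chromosome it stood at 1.39 ± 0.38 (SE) and was not called (adjusted p = 0.155 in edgeR). The authors' deposited table places an ACTB promoter on the anchor from 5588330, and the gain did not extend to all contacts of that anchor. The anchor's loop to 5525315, 64.6 kb long, held 20, 25, 24 and 21 PETs, all 4 libraries alike (-0.22). All pairs of the anchor other than the 12.8-kb loop stood at -0.11.

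The 56.5-kb loop to CAV1, which encodes the coat protein of caveolae, joined 116104414 to 116111965 with 116159015 to 116170396. It held 37 and 39 PETs against 17 and 13, again without overlap. It stood at 1.29 scaled to library totals, again a description, and at 1.12 ± 0.32 (SE) relative to the chromosome, where it was not called (adjusted p = 0.172 in edgeR). Here the other pairs of the anchors were higher too, at 0.69 and 0.31.

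**Figure D4:**
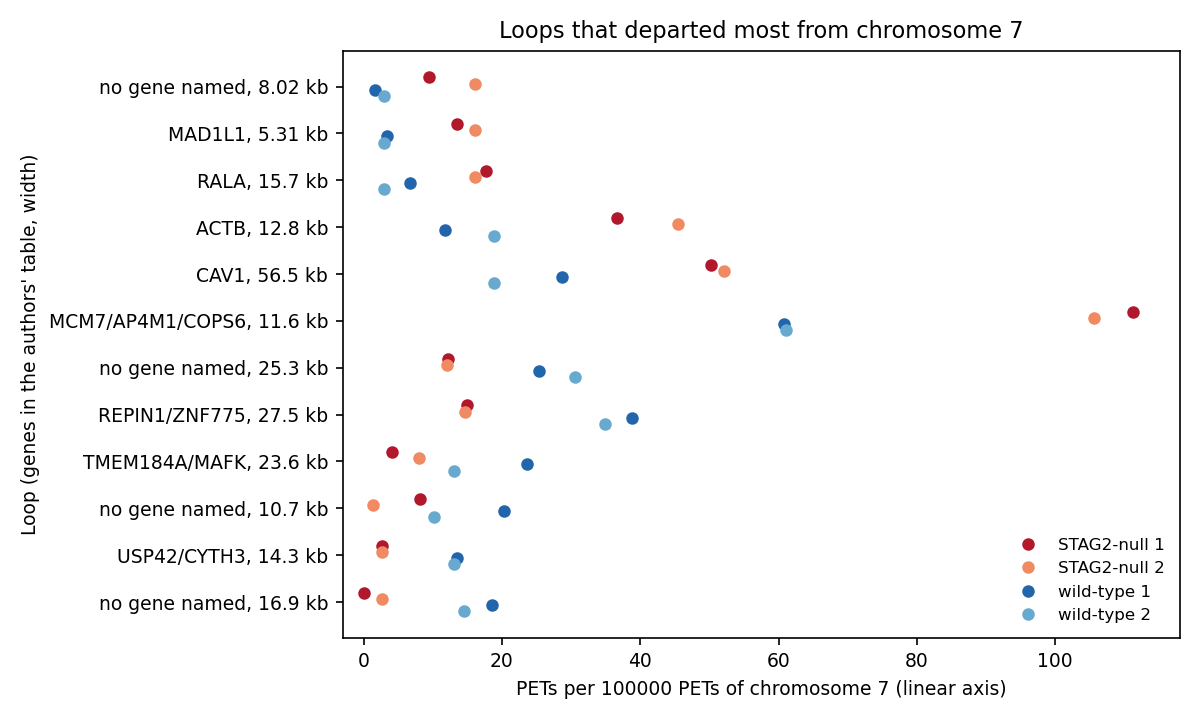
PETs per 100000 PETs of chromosome 7 (x axis) in each library, for the loops called or departing most in either direction (y axis, with width). As the choice of loops requires for most of them, both STAG2-null points lie on one side of both wild-type points in each. The MCM7 loop is the only one above 60 in any library.

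Other upward departures were not called and rested on fewer PETs. A 5.31-kb loop at MAD1L1, a spindle checkpoint gene, held 10 and 12 PETs against 2 and 2 (2.18, adjusted p = 0.240 in edgeR). An 8.02-kb loop from 115903522, with no gene named, held 7 and 12 against 1 and 2, a ratio of 5.46 as shares of chromosome 7 (exact 95% binomial interval 1.61 to 28.8). With anchors merged within 5 kb, its fitted change of 2.36 became 0.42. A 15.7-kb loop to the promoter of RALA, a Ras-like GTPase gene, held 13 and 12 against 4 and 2 (1.80, adjusted p = 0.317 in edgeR).

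Downward departures other than the called loop were likewise not called. The largest by PETs was a 27.5-kb loop at REPIN1 and ZNF775, both zinc finger genes, joining 150064249 to 150083261 with 150098118 to 150104366. It held 11 and 11 PETs in the STAG2-null and 23 and 24 in the wild-type libraries, a change of -1.30 ± 0.39 (adjusted p = 0.209 in edgeR). Both its anchors were also low in their other pairs, at -0.17 and -0.48. A loop at USP42, a deubiquitinase gene, and CYTH3 held 2 and 2 against 8 and 9 (-2.23). A loop joining the promoters of TMEM184A and MAFK, a small Maf factor gene, held 3 and 6 against 14 and 9 (-1.54). A loop from 2645205 held 9 and 9 against 15 and 21 (-1.20), and a loop from 1278307 held 6 and 1 against 12 and 7 (-1.62). The latter stood at -0.86 without STAG2-null 2 and -3.31 without STAG2-null 1. With merged anchors, the loops at REPIN1, at TMEM184A and from 2645205 stood at -0.49, -0.51 and -0.68.

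The loop from 1278307 shares an anchor with the loop to UNCX, a homeobox gene, which held 39 and 43 against 24 and 25 PETs (0.53, adjusted p = 0.593 in edgeR). Neighbouring loops at the same anchor thus stood on opposite sides of the chromosome's ratio, with the size of the lower value resting on the STAG2-null library used.

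The 8 loops with most PETs all stood above the chromosome, as did its median tested loop (0.13). Pairs of chromosome 7 with at least 20 PETs had a ratio of 0.40, against 0.26 for all its pairs. A value above 0 is therefore no departure by itself. Of the 8 loops, the MCM7 loop (0.83) was called. The UNCX loop (0.53) and the loop from 99676354 (0.30), given above, were not. The loop to FKBP9, a prolyl isomerase gene, held 68, 67, 44 and 42 PETs (0.43), and a loop from 130579711 held 50, 43, 27 and 34 (0.39). The loops from 151938041 (0.24), 73439693 (0.17) and 55747664 (0.05) were closer to it. The last of these, below the median tested loop, held 33, 39, 24 and 36 PETs, with overlapping genotypes.

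The 2206 loops can also be counted without a filter. As shares of chromosome 7, both STAG2-null libraries lay above both wild-type libraries in 534 loops (24.2%, background 21.1%) and below them in 323 (14.6%, background 16.2%). These shares are close to those of all high-confidence loops. As shares of the library the counts were 727 (background 20.6%) and 196 (background 18.1%).

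In 2 of the loops no wild-type PET was found, and 0 loops lacked a STAG2-null PET. No share over all high-confidence loops stands beside these counts, and they run in the direction by which the chromosome was chosen. They are a description. A 495-kb loop over CDK14, a cyclin-dependent kinase gene, joined 90222700 to 90227603 with 90717406 to 90722586 and held 9 and 6 STAG2-null PETs. Against a floor of 3 PETs over the wild-type group it was at least 4.31-fold higher as a share of chromosome 7. A 51.9-kb loop at KMT2E, of the KMT2 family of chromatin regulators, held 4 and 8 and was at least 3.45-fold higher. Floors and intervals cover counting error only.

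Promoters could be placed on a single anchor for 26 genes, at 23 anchors, all named in the authors' deposited table of differential loops and so picked for change. Summed over all pairs of the anchor, contacts stood above 0 as library shares at 23 of 23 anchors and above the chromosome's ratio at 19. At 13 anchors both STAG2-null libraries were higher as shares of chromosome 7 and at 2 both were lower. No share over all anchors stands beside these counts, so nothing is read from them. ACTR3B, an actin-related protein gene, had the highest value, 0.57, with 65, 91, 51 and 39 PETs and STAG2-null 2 well above the other libraries. TRIP6, a LIM domain gene, followed at 0.47 with 186, 184, 106 and 124 PETs, and AHCYL2 at 0.46. CAV1 stood at 0.38 with 293, 342, 200 and 218. The anchor of REPIN1 and ZNF775 was the lowest at -0.26, with 217, 181, 195 and 214 PETs, nearly level as a share of the library. CUX1, a homeobox gene, was the other lower anchor at -0.07. Not all its loops were lower. A 9.36-kb loop of the same anchor held 8, 9, 2 and 2 PETs (1.82). The authors' deposited table gives that loop as stronger in the mutant, and it was not called here.

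Of 5 gene lists, few members had a placed promoter. They were 2 of 29 developmental factors, 1 of 14 chromatin regulators, 1 of 26 growth signalling genes, 2 of 16 cytoskeleton and matrix genes and 0 of 16 housekeeping genes. DLX5, a homeobox gene of skeletal and neural crest development, stood at 0.27 over its anchor, and its strongest loop held 10, 11, 11 and 8 PETs (-0.07), overlapping between genotypes. The strongest loop of CUX1 held 3, 7, 9 and 7 (-0.88, adjusted p = 0.713 in edgeR). That of LIMK1, a kinase gene of actin turnover, held 16, 12, 4 and 8 (0.997, adjusted p = 0.596). The one placed on the chromatin list, ACTR3B, has a known role in actin assembly, and its strongest loop held 13, 15, 5 and 5 (1.25, adjusted p = 0.493 in edgeR). Relative to the chromosome, 0 of these list loops were called, and the strongest loop of CAV1 has been described (adjusted p = 0.172 in edgeR).

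The authors' deposited table of differential loops holds 80 loops of chromosome 7, and their 4 counts equal those of the libraries in all 80. It lists 73 as stronger in the mutant, 3.31% of the 2206 (background 1.54%), and 7 as stronger in wild type, 0.317% (background 1.32%). The rule used this contrast, so the split is a description. By position, the authors' deposited table has 9 mutant and 4 wild-type loops in the first 10 Mb, 24 and 0 from 10 to 80 Mb, 26 and 1 from 80 to 125 Mb, and 14 and 2 beyond. Of the 73, 59 were tested here and 53 of those stood above the chromosome at an unadjusted p under 0.05 in edgeR. Among all tested loops of chromosome 7, 56 of 1141 did so (4.91%). The authors picked the 73 from the same counts, so the high share is no independent support. In the authors' deposited table, FLI1 is flagged at an anchor of 28 of the 73 (38.4%, against 28.5% of the mutant loops on other chromosomes). The other flags were less frequent than on other chromosomes. CTCF is flagged at an anchor of 44 (60.3% against 68.2%) and at both anchors of 11 (15.1% against 26.7%), H3K27ac at 60 (82.2% against 87.7%) and a promoter at 30 (41.1% against 49.1%), per the authors' deposited table. The differences in flags were not tested, and the flag shares of all chromosome 7 loops were not set beside them.

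Of the 7 loops that the authors' deposited table gives as stronger in wild type, 4 are described above. The others had fewer than 20 PETs and were not tested. A loop at ATXN7L1 held 2 and 1 PETs against 9 and 6 (wild-type over STAG2-null ratio 5.80, exact 95% binomial interval 1.64 to 31.2). A 178-kb loop at UBE2H, a ubiquitin-conjugating enzyme gene, held 0 and 2 against 5 and 8 (7.54, 1.71 to 68.8), with CTCF flagged at both anchors.

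In the authors' deposited table, 29 of the 73 mutant loops lie in 5 stretches of at least 4 loops, which hold 17.3% of the 2206 loops, and 44 lie elsewhere. Whether they gather there was not tested. In these stretches the mutant loops were set beside all other pairs of the same span. In the Williams syndrome region of 7q, 6 such loops, at genes that include MLXIPL, STX1A, LIMK1 and CLIP2, held 82, 93, 29 and 40 PETs together, 1.14 as the log2 of chromosome 7 shares. The other 1494 pairs of that span stood at -0.08, below the chromosome. Further along 7q, 8 loops from the anchor of MCM7 to that of UFSP1 stood at 1.14 and the other pairs at 0.13. Around CAV1 and MET, the hepatocyte growth factor receptor gene, 5 loops stood at 1.08 and the other pairs at 0.25. A further 6 loops without a named gene between 130559436 and 130714668 stood at 0.87, with the other pairs at 0.18. Near PRKAR1B and UNCX, 4 loops stood at 0.83 and the other pairs at -0.08. The loops were picked by the authors for change, so their own level is no finding. The other pairs were not picked themselves, but their spans were, as each was chosen for holding at least 4 such loops. They stood 0.13 to 0.25 above the chromosome in 3 stretches and 0.08 below it at UNCX and in the Williams syndrome region. At UNCX the other pairs held 1733, 1556, 1427 and 1555 PETs, and as shares of chromosome 7 the genotypes overlapped. These values are a description.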

How the data were processed

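The authors deposited, for each library, a count of PETs per anchor pair with a p-value per pair, and a table of high-confidence loops with counts, a p-value and a false discovery rate per loop, all below 0.01 on this chromosome. The submitters' processing notes name HiC-Pro and hg19 and give no version for either. Per the file headers, the p-values of loops are those of mango. Their differential loops carry a deposited log2 fold change and adjusted p-value, from a test not given in the sources used here. All counts per library used here come from the per-library files, and all positions are on hg19 except those of promoter sequences.

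Pairs were joined over the 4 libraries. Genotype ratios are differences of mean log2 shares of PETs. Loops of the high-confidence table with at least 20 PETs were tested with edgeR 4.0.16 in R 4.3.3 (quasi-likelihood, Benjamini-Hochberg, adjusted p under 0.05) on genotype. Library scaling used library totals with TMM factors. Chromosome scaling replaced them by the PETs of the loop's chromosome. The scripts were tested on simulated data. DESeq2 1.42.0, other filters, scalings and left-out libraries were alternatives. With 1 to 3 PETs in a group, ratios carry exact 95% binomial intervals from scipy 1.17.1.

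Replicates differed beyond sampling noise (chi-square over its degrees of freedom of 1.18 between the STAG2-null and 1.07 between the wild-type libraries). The chromosome, the gene lists and the tests were chosen with earlier results of these data known. Named are called loops, the 6 strongest departures per direction with separated genotypes, the 8 loops with most PETs, the authors' loops stronger in wild type, the 3 highest and lowest steps and the strongest loop at each listed promoter that could be placed. Clusters, neighbouring loops at named anchors and other promoters were chosen after their values were seen. Of the authors' loops stronger in wild type, 1 is not reported here.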

Additional observations from a re-analysis of the deposited data

How the results depend on the processing

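Alternatives were run for called loops and for the strongest departures, and all kept their direction. The 6 calls of single loops, counted per scaling, were lost in 43 of 65 alternatives. The DLX5 loop, without such alternatives, stood at 0.10 with library and at -0.07 with chromosome scaling. The chromosome's ratio of 0.26 was 0.21 on sparse pairs, 0.40 on pairs with at least 20 PETs, 0.38 on high-confidence loops, 0.23 on pairs of at least 20 kb, 0.29 against the other chromosomes and 0.29 without the first 5 Mb, and 0.26 to 0.27 with a library left out. The arm difference of -0.11 was -0.051 without the first 5 Mb, a setting chosen after seeing the data, and -0.15 to -0.07 with a library left out, and kept its sign in the other settings. Steps with separated genotypes numbered 28 of 31 on sparse pairs and 28 of 30 on pairs with at least 20 PETs. On high-confidence loops and on pairs of at least 20 kb they numbered 29 of 31. With a library left out or against the other chromosomes all 31 of 31 were separated. Placed by the left anchor there were 32 of 32, and in steps of 10 Mb 16 of 16. No share over the genome stands beside these counts.

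With library scaling, the 4 calls became 2 without a filter, 0 with merged anchors (edgeR, 175 higher and 16 lower unadjusted), 0 in DESeq2 (11 and 2 unadjusted), 2 with plain library totals and 0 to 1 with a library left out (72 to 94 higher and 12 to 23 lower unadjusted in edgeR). With chromosome scaling, the 2 calls became 1 with at least 40 PETs, 1 scaled to sparse pairs, 1 scaled to the tested loops of the chromosome (chosen after seeing the data), and 0 in edgeR without a filter (98 and 48 unadjusted), with merged anchors (49 and 67), scaled to the 5 Mb step (58 and 19) and with any library left out (31 to 63 and 20 to 29), as in DESeq2 (4 and 2). Same-numbered libraries did not deviate together (correlation 0.00282 over tested loops), and the replicate block kept both counts, at 4 and 2. Causes of these differences were not tested. The unadjusted counts of these settings stand without a share over all tested loops, so nothing is read from them. Depth limits single loops, since the median loop rested on 20 PETs over 4 libraries.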
